A study of Mus musculus with 4 samples.

Results

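IFIT, Mx and related antiviral effector genes were examined in primary mouse hepatocytes with and without dynamin-related protein 1 (Drp1, gene Dnm1l), the GTPase that drives mitochondrial fission. The set holds 10 genes, Ifit1, Ifit2, Ifit3, Ifit3b, Rsad2, Ifi27l2a, Ifi44, Mx1, Mx2 and Bst2, of 32629 genes named on the array. They were taken by gene name and were chosen by their differences between these same 4 arrays, so that the values below are a description and carry no test. The array holds 15 probes for them. All 10 had a probe well above background, by the flag of the scanner software, on at least 1 array, as had 18775 of all genes, and 8 of the 10 passed on all 4 arrays.

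The study placed 1 array in each of 4 groups: untreated control hepatocytes, untreated Drp1LiKO hepatocytes, control hepatocytes given 200 μM palmitate, a saturated fatty acid, and Drp1LiKO hepatocytes given the same dose. The mice were male and of the C57BL/6 strain, and their age was not given in the sources used here. Drp1LiKO mice carried floxed Dnm1l alleles recombined by Cre under the albumin promoter, which acts in hepatocytes, and the methods name Drp1 flox/flox littermates as controls, whereas a label calls the control cells wild-type. The title of the palmitate-treated control array names Drp1flox, and that of the untreated one says control only. Cells were harvested 24 h after seeding. How many animals stood behind an array, and how long palmitate was given before this harvest, are not given in the sources used here. With no replicate in any group, the spread between animals or cultures stayed unknown for every difference. Each value is a log2 intensity minus the 75th percentile of its array, so that 0 is that percentile. The 75th percentile lay between 424 and 542 intensity units, and 44.7% to 51.1% of the probes on an array were well above background. The error printed after a difference is the one the scanner software gives for both spots together, which covers the spot and not the cells. Both untreated arrays were on slide 1 and both palmitate arrays on slide 2, so the genotypes were compared within a slide, while palmitate and slide cannot be told apart. The raw data of the untreated control array also belong to another series, per its label, and whether the untreated and the palmitate-treated cells came from 1 experiment is not given in the sources used here. The Dnm1l probe that stands for the gene was lower in Drp1LiKO, with log2 differences of −1.35 untreated and −1.42 with palmitate, in the direction of the labels. The other Dnm1l probe, well above background on 2 arrays only, differed by −0.35 and 0.22.

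These genes are among the best known targets of type I and type III interferon. Interferon receptors activate the kinases Jak1 and Tyk2, which phosphorylate STAT2 among other proteins, and complexes of STAT2 with IRF9 bind interferon-stimulated response elements (ISREs) in promoters. The products act on different steps of viral growth: IFIT proteins bind viral RNA or block its translation, viperin (Rsad2) converts CTP into a chain terminator of viral polymerases, Mx proteins are dynamin-like GTPases that trap viral nucleocapsids, and tetherin (Bst2) holds budding virions at the cell surface.

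The promoters of these genes were read first, since STAT2 and IRF9 act there. RefSeq promoter windows of the assembly GRCm38.p6, running from 250 bases before to 50 bases after the annotated start, were matched for 7 of the 10 genes, with a pair of starts for Ifit2. Windows for Ifi27l2a, Mx1 and Mx2 were not analysed here. The ISRE core, searched on both strands as GAAA, any 2 bases and GAAA (TTTC, any 2 bases and TTTC on the other strand), stood in the windows of 5 of the 7 genes. It occurred in 3.44% of all 32851 windows of this length and in 44.8% of 29 windows of 26 other interferon-stimulated genes. The stretches below are those that hold these matches, from 200 to 71 bases before the start, on the gene's own strand and with the matches in capitals. They lie at chr19:34640689-34640818 (plus strand) for Ifit1, chr19:34583329-34583458 (plus) for Ifit3, chr19:34607757-34607886 (plus) for Ifit3b, chr12:26456523-26456652 (minus) for Rsad2 and chr8:71537543-71537672 (minus) for Bst2.
Ifit1: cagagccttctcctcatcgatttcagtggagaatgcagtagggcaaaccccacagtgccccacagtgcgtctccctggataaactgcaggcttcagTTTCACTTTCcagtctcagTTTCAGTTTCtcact
Ifit3: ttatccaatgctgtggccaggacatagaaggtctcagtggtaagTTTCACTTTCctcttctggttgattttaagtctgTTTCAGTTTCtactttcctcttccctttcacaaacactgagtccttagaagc
Ifit3b: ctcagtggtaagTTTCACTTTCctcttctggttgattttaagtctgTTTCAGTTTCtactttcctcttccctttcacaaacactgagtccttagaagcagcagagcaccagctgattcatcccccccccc
Rsad2: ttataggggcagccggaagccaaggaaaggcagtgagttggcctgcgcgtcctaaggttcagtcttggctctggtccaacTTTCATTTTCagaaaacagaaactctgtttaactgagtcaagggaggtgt
Bst2: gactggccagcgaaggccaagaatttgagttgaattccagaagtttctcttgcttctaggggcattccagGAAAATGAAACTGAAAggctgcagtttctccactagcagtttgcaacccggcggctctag

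Ifit1, Ifit3 and Ifit3b each held a pair of matches, Rsad2 a single one, and Bst2 a pair that overlap. The first bases of the matches lay 104 and 85 bases before the start of Ifit1, 156 and 122 before that of Ifit3, and 188 and 154 before that of Ifit3b. The matches of Ifit3 and Ifit3b thus stood 34 bases apart in both genes, within a run of 169 identical bases shared by both windows. Those of Ifit1 stood 19 bases apart. At least 2 matches stood in 0.225% of all windows and in 13.8% of those of the other interferon-stimulated genes. The Rsad2 match began 120 bases before the start and the Bst2 matches 130 and 124 bases before it. Neither Ifit2 window held the core, and neither did that of Ifi44. The core of the gamma-activated site (TTCNNNGAA, palindromic), an element of interferon gamma responses, was found 241 bases before one Ifit2 start and 136 bases before the start of Bst2, where it overlaps the first ISRE match. This core occurred in 8.30% of all windows and in 24.1% of those of the other interferon-stimulated genes. A match of letters is a description of the window and does not show that a factor binds there.

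**Figure D1:**
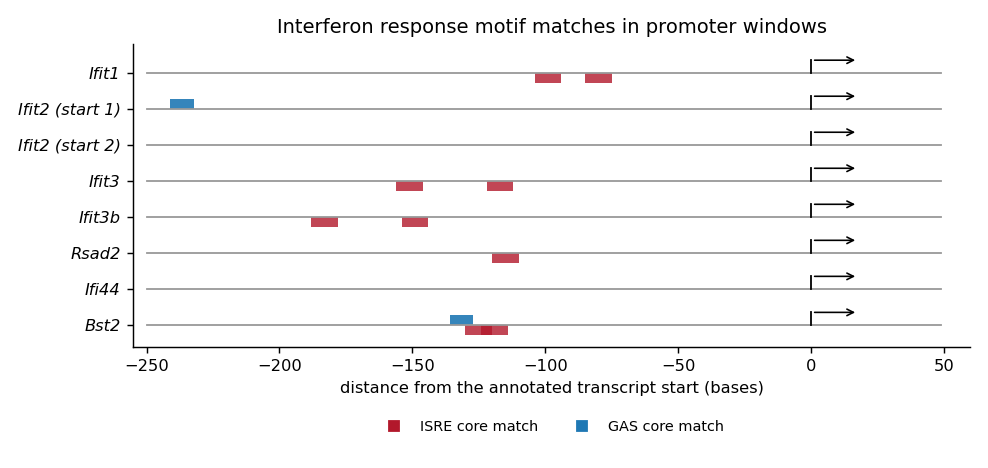
Matches to the ISRE core (red, below the line) and the gamma-activated site core (blue, above the line) in the promoter windows of 7 genes, by distance in bases from the annotated transcript start (arrow). Ifit1, Ifit3, Ifit3b and Bst2 hold a pair of ISRE matches each and Rsad2 a single one, while both Ifit2 windows and that of Ifi44 hold none.

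The array reads these transcripts with 60-base probes, most of them near the 3′ end. Ifit2, Ifit3, Ifit3b and Ifit1 lie next to each other on chromosome 19, and their probes lie at chr19:34650244-34650303, chr19:34663105-34663164, chr19:34687522-34687581 and chr19:34723827-34723886 (mm9, plus strand). Since Ifit3 and Ifit3b are near copies, their probes were compared: at the best offset they shared 21 of 60 bases, with no common run over 8 bases. Neither probe was compared with the transcript of the other gene, so whether each reads its own gene only was not tested. Rsad2 is read at a pair of places. The probe that stands for it lies at chr12:27127859-27127918 (mm9, minus strand), from base 3474 of the transcript, and the other one begins at base 540 and spans an exon junction, with its ends 3302 bp apart at chr12:27135585-27138886. The junction probe is printed because both probes gave different sizes of difference.
Rsad2 probe: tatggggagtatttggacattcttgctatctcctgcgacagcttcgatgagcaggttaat

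The first comparison asks how these genes differ between Drp1LiKO and control hepatocytes without palmitate. Of the 10 genes, 8 were at least 2-fold higher in Drp1LiKO and 0 were at least 2-fold lower, the exceptions being Ifit2 and Bst2. Of all 18147 genes measured in this comparison, 8.71% were at least 2-fold higher and 5.56% lower. Where both arrays had to be well above background, the count was 6 of 8, beside 4.54% of 16279 genes higher and 3.44% lower. The median log2 difference of the 10 genes was 4.26, against −0.02 for all genes. The choice of the genes used these arrays, so nothing is read from the count.

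By their probes, the IFIT genes divided within 1 cluster. Ifit3 read −3.12 in control, 1.23 in Drp1LiKO, −2.02 in control with palmitate and 1.59 in Drp1LiKO with palmitate. Both Drp1LiKO arrays were thus above the 75th percentile and both control arrays well below it. Untreated Drp1LiKO was higher by 4.35 ± 0.23 log2 units, 20.4-fold. Ifit3b read −4.16, 0.06, −3.50 and 0.66 in the same order of arrays, and was 18.7-fold higher in untreated Drp1LiKO (4.22 ± 0.29). Ifit1 read −3.86, −0.25, −2.51 and 0.08, a difference of 3.61 ± 0.27 or 12.2-fold. For these 3 genes the lower of the Drp1LiKO arrays exceeded the higher of the control arrays. Ifit2, whose product also binds viral RNA and acts on translation, read −2.84, −2.94, −2.80 and −3.43. All 4 Ifit2 values lay within 0.63 of each other, and the untreated genotype difference of −0.10 ± 0.23 was within the scanner error. Ifit2 was read with a single probe of low intensity, 43.4 to 70.6 units. The lowest probes well above background on the arrays had 17.7 to 23.5 units. The Ifit2 values hold for that probe only.

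Rsad2 had the highest genotype difference of all 16279 genes well above background on both untreated arrays. Its probe read −2.45 in control, 2.98 in Drp1LiKO, −0.57 in control with palmitate and 3.13 in Drp1LiKO with palmitate. The untreated difference was 5.43 ± 0.21 log2 units, or 43.3-fold. The junction probe, well above background on all 4 arrays, read −1.69, 1.30, −1.48 and 1.39, and its untreated difference was 2.98 ± 0.21. Both probes separated the genotypes, by sizes that differed far beyond the scanner error. Ifi27l2a, a small hydrophobic interferon-induced protein, came second of the 16279 genes, with values of −3.69, 1.38, −3.53 and 1.20 and a difference of 5.06 ± 0.25 (33.4-fold). Its other probe was not well above background on any array.

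Ifi44 and the Mx genes were also higher in Drp1LiKO. Ifi44, an interferon-induced protein of the cytoplasm, read −4.82 in untreated control, where it was not well above background, and −0.23 in Drp1LiKO, −2.68 in control with palmitate and 0.35 in Drp1LiKO with palmitate. Set against the lowest probes well above background on the control array, where that is higher than the probe's own value, Ifi44 was at least 22.7-fold higher in untreated Drp1LiKO. Its other probe was well above background on both Drp1LiKO arrays only, with differences of 2.86 ± 1.46 untreated and 2.37 ± 1.47 with palmitate. That probe read −4.14 in untreated Drp1LiKO, close to the lowest passing probe of the untreated control array at −4.74. Mx1 read −6.84 in control and −6.29 in control with palmitate, not well above background on either, and −2.55 and −2.88 in Drp1LiKO without and with palmitate. By this probe, Mx1 was at least 4.54-fold higher in untreated Drp1LiKO. The other Mx1 probe was well above background in untreated Drp1LiKO only, at −4.57, with an untreated difference of 2.34 ± 1.48. Both bounds, 4.51 log2 units for Ifi44 and 2.18 for Mx1, hold on this scale only. With normexp background correction, which draws dim probes together, the untreated differences were 2.47 and 1.23. Mx2 read −3.28, 0.04, −2.28 and −0.01 and was 10.0-fold higher in untreated Drp1LiKO (3.32 ± 0.24), while its other probe was not well above background on any array. The RefSeq table of the C57BL/6J reference lists Mx1 and Mx2 as transcribed pseudogenes with a non-coding record each, since this strain lacks functional Mx alleles, so the probes read RNA and say nothing about Mx protein.

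**Figure D2:**
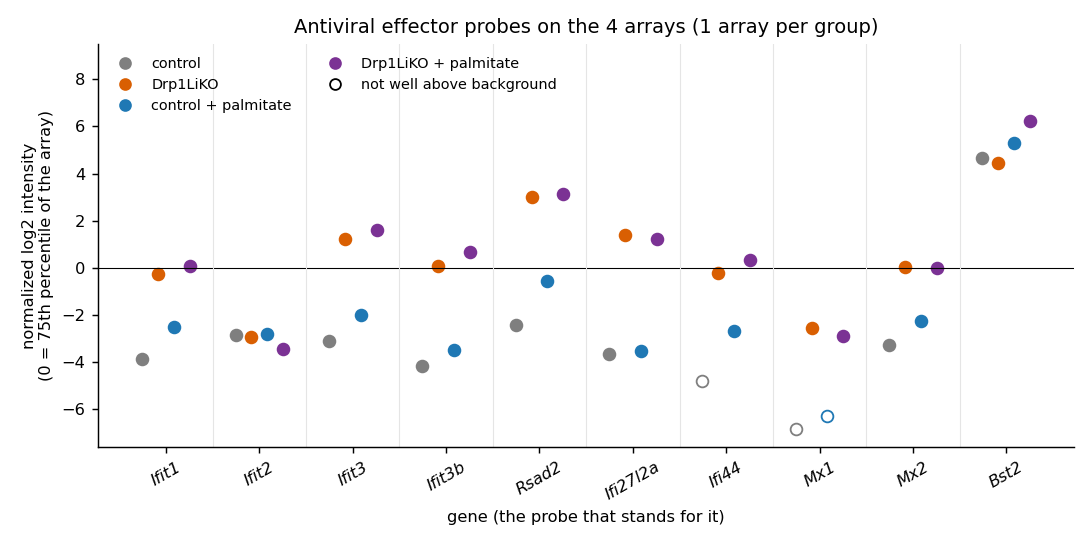
Normalized log2 intensity of the probe standing for each gene (y axis, 0 at the 75th percentile of the array) on the 4 arrays, 1 array per group; open points were not well above background. For 8 genes both Drp1LiKO arrays (orange and purple) sit above both control arrays (grey and blue), the 4 Ifit2 points lie close together, and Bst2 is highest in Drp1LiKO with palmitate. Levels of different probes are not to be compared.

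With palmitate, the same 8 genes were at least 2-fold higher in Drp1LiKO than in control and 0 were at least 2-fold lower. Of all 17374 genes measured, 7.26% were at least 2-fold higher and 4.18% lower. With both arrays well above background the count was 7 of 9, beside 3.15% of 15559 genes higher and 2.55% lower. The median of the 10 genes was 3.22, against −0.03 for all genes. Ifi27l2a had the highest difference of the 15559 genes well above background on both palmitate arrays, 4.73 ± 0.28 log2 units or 26.6-fold. Ifit3b was 17.8-fold higher (4.16 ± 0.28), Rsad2 13.0-fold (3.70 ± 0.21), Ifit3 12.2-fold (3.61 ± 0.22), Ifi44 8.18-fold (3.03 ± 0.24), Ifit1 6.06-fold (2.60 ± 0.23) and Mx2 4.83-fold (2.27 ± 0.22). Mx1 was at least 2.44-fold higher on this scale. The junction probe of Rsad2 differed by 2.87 ± 0.21. Bst2 was 1.90-fold higher in Drp1LiKO, just short of 2-fold, and Ifit2 differed by −0.63 ± 0.27.

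**Figure D3:**
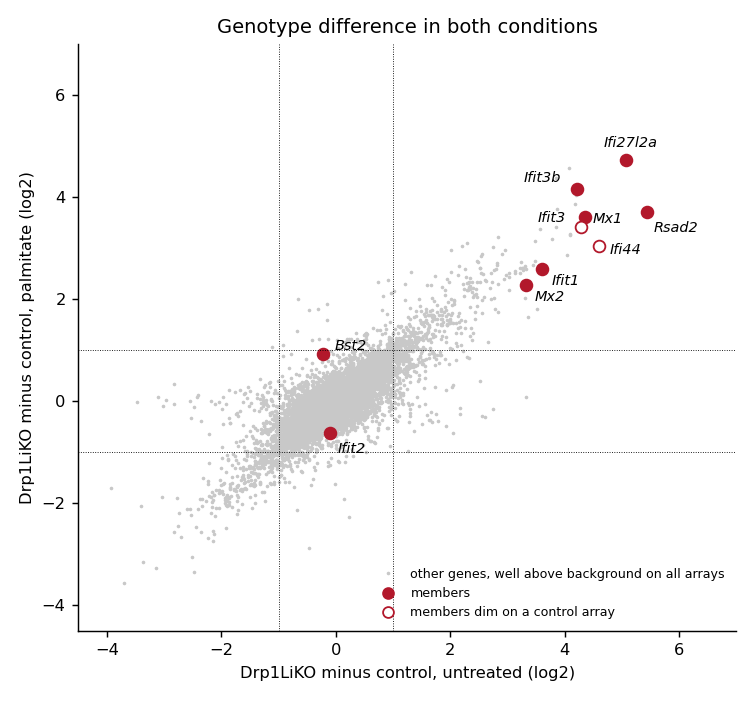
Log2 difference between Drp1LiKO and control in untreated cells (x axis) and with palmitate (y axis), each from 1 pair of arrays; grey points are the other genes well above background on all 4 arrays, red points the antiviral effectors (open where the probe was dim on a control array) and dotted lines mark 2-fold. The 8 genes higher in Drp1LiKO lie at the upper right, with Rsad2 at 5.43 and 3.70 and Ifi27l2a at 5.06 and 4.73, while Ifit2 and Bst2 lie in the central cloud or at its edge.

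Hepatocyte preparations hold other liver cells, and the markers of some of these cell types were higher in Drp1LiKO. Of 13 macrophage marker genes measured, 12 were at least 2-fold higher in untreated Drp1LiKO, and 11 of 12 with palmitate, with median log2 differences of 2.41 and 1.87. The summed level of the list, in units of the 75th percentile, was 10.3 in control, 39.4 in Drp1LiKO, 12.9 in control with palmitate and 37.3 in Drp1LiKO with palmitate. Timd4 and Cd163, which mark resident liver macrophages, were dim on all 4 arrays, while Clec4f was well above background on both Drp1LiKO arrays and dim on both control arrays. Of the endothelial markers 7 of 10 and 5 of 9 were at least 2-fold higher in Drp1LiKO, with medians of 2.02 and 1.05, and of the stellate cell markers 7 of 9 and 6 of 8, with medians of 3.03 and 2.54. The summed endothelial level ranged from 8.25 to 9.29 in control and from 12.3 to 14.1 in Drp1LiKO, and the summed stellate level from 45.2 to 46.4 and from 59.3 to 62.6. Egfl7 made up most of the endothelial sum, with differences of 0.29 and 0.42. Most of the stellate sum was Acta2, with differences of 0.22 and 0.02, whereas the matrix gene Dcn differed by 4.19 and 4.04. Neutrophil markers had medians of 1.20 and 1.64 (1 of 2 and 2 of 3 at least 2-fold higher). Lymphocyte medians were −0.09 and −0.21 (1 of 3 in both conditions), and cholangiocyte medians 0.04 and −0.40 (1 of 4 and 0 of 4). The summed cholangiocyte level was lower in Drp1LiKO, 41.8 against 60.5 in control untreated and 43.6 against 57.1 with palmitate. Spp1 made up most of this sum, with differences of −0.60 and −0.40. Krt19 differed by −0.37 and −0.40, Sox9 by 0.45 and 0.21, and Krt7, dim in untreated control, by 1.47 and −0.45. The summed level of 12 hepatocyte markers, set mostly by Alb and Serpina1a, lay between 1293 and 1330 on all 4 arrays. Of these 12 genes, 3 were at least 2-fold higher in untreated Drp1LiKO (Cyp3a11, Tat and Tdo2) and 4 with palmitate, with medians of 0.37 and 0.39. The part of these cells in the values of the antiviral genes was not tested, and in bulk RNA more cells of a type and more RNA per cell cannot be told apart. Bst2 is also a marker of plasmacytoid dendritic cells. Of 5 other markers of these cells, Siglech, Tcf4 and Cox6a2 passed the background flag on all 4 arrays with genotype differences under 2-fold, and Ccr9 and Klk1 passed on none. Their summed level, most of it from Siglech, lay between 55.8 and 71.1.

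The next comparison asks how palmitate-treated hepatocytes differed from untreated ones. In control, 5 of the 9 genes measured were at least 2-fold higher with palmitate and 0 were at least 2-fold lower, with a median of 1.00. Of all 17214 genes measured, 2.58% were at least 2-fold higher and 2.71% lower, and their median was 0.00. With both arrays well above background, 4 of 8 effectors were at least 2-fold higher, beside 0.782% of 15606 genes higher and 0.237% lower. Rsad2 was 3.69-fold higher (1.88 ± 0.21), Ifi44 at least 4.14-fold, Ifit1 2.55-fold (1.35 ± 0.28), Ifit3 2.14-fold and Mx2 2.01-fold (1.00 ± 0.26), just over the threshold. Ifit3b (0.67 ± 0.34) and Bst2 (0.63 ± 0.20) lay between 1.5-fold and 2-fold. Ifi27l2a (0.15 ± 0.31) and Ifit2 (0.04 ± 0.25) were within the scanner error, and Mx1 was well above background on neither array. The junction probe of Rsad2 gave 0.20 ± 0.21 in this comparison, so the difference in control cells was seen with only 1 of its probes. Mx2 lay just under 2-fold with the deposited table (0.94) and with quantile normalization (0.95), and the count was then 4. With normexp background correction and an offset of 50, which draws dim probes together, the count in control was 1 and the remaining gene was Rsad2 (1.37). Ifi44 then differed by 0.82 log2 units, under 2-fold and below its bound. Macrophage markers in the same comparison were higher at least 2-fold for 2 genes and lower for 4 of 10.

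In Drp1LiKO, only Bst2 of the 10 genes was at least 2-fold higher with palmitate, and 0 were at least 2-fold lower. Of all 18050 genes measured, 3.72% were at least 2-fold higher and 2.91% lower, as were 1.64% and 0.667% of the 16489 genes that passed on both arrays. The median of the 10 genes was 0.24, against −0.00 for all genes. Bst2 read 4.68 in control, 4.46 in Drp1LiKO, 5.31 in control with palmitate and 6.23 in Drp1LiKO with palmitate. It was 3.41-fold higher in Drp1LiKO with palmitate than without (1.77 ± 0.20), and ranked 57 of these 16489 genes from the highest. Ifit3b (0.60 ± 0.20) and Ifi44 (0.58 ± 0.20) lay close to 1.5-fold, Ifit3 (0.36 ± 0.20) and Ifit1 (0.34 ± 0.20) lower, and Rsad2 (0.15 ± 0.20), Mx2 (−0.05 ± 0.20) and Ifi27l2a (−0.18 ± 0.20) within the scanner error. Mx1 (−0.33 ± 0.24) and Ifit2 (−0.49 ± 0.26) were lower.

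**Figure D4:**
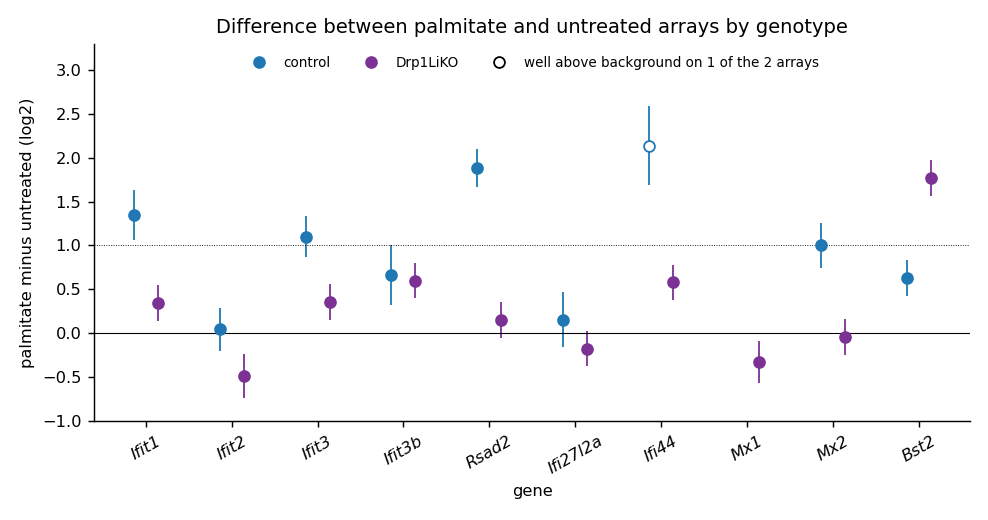
Log2 difference between palmitate and untreated arrays in control (blue) and Drp1LiKO (purple) for each gene, with bars for the scanner error of the difference and a dotted line at 2-fold; 1 array per group. Rsad2, Ifit1, Ifit3 and Mx2 lie at or above 1.00 in control and below 0.37 in Drp1LiKO, and Bst2 is the one gene higher in Drp1LiKO (1.77 against 0.63). Mx1 in control was well above background on neither array and is left out.

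The palmitate difference in Drp1LiKO minus that in control was below 0 for 9 of the 10 genes, with a median of −0.81 against −0.00 for all genes. Among these 9, Ifit3b (−0.07 ± 0.40) and Ifi27l2a (−0.33 ± 0.37) were within the scanner error. Mx1 (−0.88 ± 2.06) was dim on both control arrays. Ifit3b was slightly above 0 with the deposited table and with quantile normalization, and 0.17 with normexp. The palmitate difference in Drp1LiKO minus that in control was −1 or lower for 4 genes, a size reached by 5.1% of all 18775 genes. The probe that stands for Rsad2 had −1.74 ± 0.30, rank 25 from the lowest of 15410 genes well above background on all 4 arrays, Ifi44 −1.56 ± 0.49, Mx2 −1.05 ± 0.33 and Ifit1 −1.01 ± 0.35. The junction probe of Rsad2 gave −0.11 ± 0.30, within the scanner error, and the mean of both probes −0.92, so the call was seen with only 1 of its probes. With the authors' deposited table and with quantile normalization, 2 genes (Rsad2 and Ifi44) were at −1 or lower, Mx2 then having −0.99 and Ifit1 −0.94, and the median was −0.59. With normexp only Rsad2 was (−1.25). Bst2 went the other way with 1.14 ± 0.29, as did 5.09% of all genes by at least 1. With all 4 arrays well above background, 3 of 8 effectors were at −1 or lower and 1 at 1 or higher, beside 0.831% and 0.844% of 15410 genes. The genotype difference of Ifit3b was nearly the same in both conditions (4.22 and 4.16). This contrast uses the same 4 arrays as the comparisons above and has no residual degree of freedom.

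The rest of the pathway was read by role. Among 8 interferon genes on the array, Ifna4, Ifng, Ifnk and Ifne were dim on all 4 arrays, and Ifnb1 was well above background only in Drp1LiKO with palmitate, at −4.42. Ifna2 was so only in untreated Drp1LiKO, and Ifna1 and Ifnl3 were so on all 4 arrays with genotype differences under 2-fold. Of 6 receptor genes, Ifnar1, a chain of the type I receptor, had genotype differences of 1.11 without and 0.85 with palmitate. The other 5 differed by less than 2-fold in both conditions. Among them Ifnlr1, a chain of the type III receptor, was higher in Drp1LiKO in both conditions and fell just short of 2-fold in untreated cells. None of the 3 receptor kinases differed by 2-fold. Among the transcription factors, Stat2, Irf7 and Irf8, the last also a factor of macrophages, were at least 2-fold higher in Drp1LiKO in both conditions. Irf5 went the other way, with −0.97 untreated and −0.67 with palmitate, and Irf3 and Irf1 differed by less than 2-fold in both conditions. Stat2 differed by 1.45 untreated and 1.02 with palmitate, and Irf9, its partner at the ISRE, by 1.08 and 0.64. Irf7, which amplifies interferon production, differed by 1.83 and 1.49. Usp18, which removes ISG15 and dampens the type I receptor, was higher by 2.35 and 1.84. Of the other 5 negative regulators none differed by 2-fold in untreated cells, and Socs3, an inhibitor of cytokine receptors, was higher by 1.20 with palmitate. Of 30 other interferon-stimulated genes measured, 18 were at least 2-fold higher in untreated Drp1LiKO and 14 with palmitate, with medians of 1.22 and 0.91. With palmitate against untreated cells, 9 of 28 were at least 2-fold higher in control and 1 of 30 in Drp1LiKO, which was Zbp1, a sensor of Z-form nucleic acid.

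**Figure D5:**
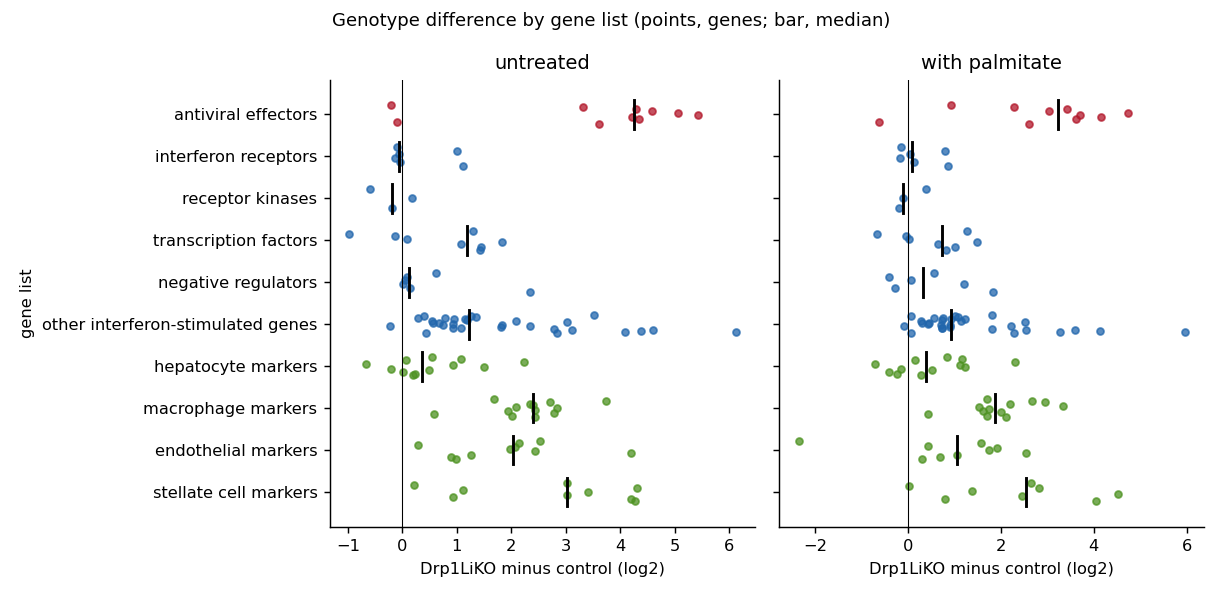
Log2 difference between Drp1LiKO and control for each gene (points) of 10 lists in untreated cells (left) and with palmitate (right), with the median of each list as a black bar; genes that passed the background flag on 1 or both arrays compared, dim values as measured. The antiviral effectors have medians of 4.26 and 3.22, the other interferon-stimulated genes 1.22 and 0.91 and the macrophage markers 2.41 and 1.87. The medians of receptors and receptor kinases lie around 0.

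Genes next to the antiviral effectors in the genome were read beside them. Cmpk2, a mitochondrial nucleotide kinase encoded next to Rsad2, had genotype differences of 2.79 log2 units without and 1.80 with palmitate. Near the IFIT cluster, Ch25h, which makes the antiviral oxysterol 25-hydroxycholesterol, was higher by 2.90 and 2.89, whereas Lipa, the lysosomal acid lipase, differed by 0.03 and −0.03. Ifit1bl2 differed by 0.62 and 0.28, and Ifit1bl1 was dim on all 4 arrays. Next to Ifi27l2a, Ifi27 was higher by 1.93 and 1.52 and Ifi27l2b by 1.24 and 0.80. Near the Mx genes, Tmprss2 differed by 1.05 and 0.52, and Ifi44l, the neighbour of Ifi44, was not well above background on any array.

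The pattern over the 4 arrays was also compared, as the Euclidean distance between values centred per gene. Among the 8 effectors well above background on all arrays, Mx2 (0.311) and Ifit1 (0.387) lay closest to the mean pattern of the set, and Ifit2 (3.40) and Bst2 (2.79) farthest from it. Of 15402 other genes, those closest to that mean were BF149456 (0.257), Trim30a (0.303), Oasl1 (0.318), Gm5796 (0.320) and LOC545005 (0.333), named as on the array. With 4 arrays, likeness of this kind reflects mostly the difference between the genotypes.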

How the data were processed

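RNA from 4 cultures of primary hepatocytes was labelled with Cy3 and hybridised to a 1-colour Agilent mouse array. The values in the deposited scanner tables are linear intensity, which the authors made with Agilent Feature Extraction, version 10.7.1.1 per the file headers and 9.5.1.1 per the submitters' processing notes. This software subtracts background within each array and does not scale between arrays. The deposited table of processed intensity values (median 4.18 on the log2 scale in each column) kept the rank order of the scanner values, with sorted columns that differ by at most 0.00203 log2 units, and was used as an alternative; how the authors scaled it is not given in the sources used here. The probe coordinates use mm9.

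Groups were taken from the labels. Control spots and outlier spots were left out, no spot was saturated, and log2 of the processed signal minus the 75th percentile over all spots that are not controls was taken. A shift common to most genes is not seen on this scale. Each gene was read with its brightest probe (mean over arrays) that passed the background flag on 1 array or more. A difference was called at 2-fold where this probe passed on either array. Where it passed on 1 only, the fold is a lower bound on this scale, with the dim array raised to its lowest passing probe. Repeat spots of a probe had a median SD of 0.034 to 0.040 log2 units, which is spot noise. The number of arrays limits the precision, and with 1 array per group no test was made.

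The members and lists were chosen with earlier results of these data known. Genes were named by a rule: all 10 effectors, Dnm1l, their neighbours in the genome, values for at most 8 genes of the pathway lists and the 5 genes of most similar pattern. Other genes of the pathway and cell marker lists were chosen after their values were seen. They are named where a small count, a background flag or a summed level turned on them, or where they fell short of 2-fold. The counting of 2-fold differences was tested on simulated data with spot noise only. The background flag, the lower bounds, the choice of probe and the scaling were not part of that test. Normexp used limma 3.58.1 in R 4.3.3, the rest pandas 2.3.3 in Python 3.11.15. A comparison of protein sequences was planned and is not analysed here. One gene of the transcription factor list is not reported here. Kits for RNA extraction differ between the labels and the methods.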

Additional observations from a re-analysis of the deposited data

Results flagged for a closer look

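For 3 genes the palmitate difference had opposite signs in the genotypes, each from 1 pair of arrays, and the difference between the genotypes was not tested. The values of Mx2 were 1.00 (control) and −0.05 (Drp1LiKO), which differ by −1.05. Those of Ifit2 were 0.04 and −0.49, which differ by −0.53, and those of Ifi27l2a 0.15 and −0.18, which differ by −0.33. For Mx2 the value in Drp1LiKO, for Ifit2 that in control, and for Ifi27l2a both values were within the scanner error of a difference.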

How the results depend on the processing

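The counts of genes at least 2-fold higher in Drp1LiKO lay between 6 and 8 untreated and between 7 and 8 with palmitate under all alternatives run, and the median differences stayed positive. With normexp background correction the medians were 2.39 untreated and 2.06 with palmitate, the palmitate count in control was 1 with a median of 0.61, and the median of the palmitate difference in Drp1LiKO minus that in control was −0.34. Mx1 then differed by 0.83 with palmitate, under 2-fold. With probes well above background on both arrays only, the untreated median was 3.92. With dim values raised to the floor of their array the medians were 3.92 and 2.82, and with the mean of all probes of a gene 3.50 and 2.54, where Mx2 with palmitate (0.97) was under 2-fold because its dim probe entered the mean. Of 386 values of single genes under the alternatives, 340 moved by less than the scanner error, 46 by more, and 0 reversed in sign among those past 2-fold. The 340 include 49 values without a filter on dim probes and 43 with both arrays well above background. These repeat the main values of single genes and show nothing about robustness. The deposited table and quantile normalization were nearly the same setting, both with an untreated median of 4.10. Without a filter on dim probes the median of all genes was −0.22 in both genotype comparisons and 0.18 in both palmitate comparisons, against at most 0.06 in size under the other alternatives. The palmitate count in control was 4 under each of the authors' deposited table, quantile normalization, scaling to the median and the mean of all probes, where Mx2 fell under 2-fold. No paired analysis was possible because each group has 1 array. Leaving out a replicate was likewise not possible. Low signal limits Mx1 and Ifi44 in control, where bounds stand in for folds. It also bears on Ifit3b, Ifit1, Ifi27l2a and Mx2, which passed the background flag in untreated control with low intensity. With normexp their untreated differences were 2.67, 2.30, 3.78 and 2.27, against 4.22, 3.61, 5.06 and 3.32 on the main scale. The single Ifit2 probe had low intensity on all 4 arrays, and its untreated difference with normexp was −0.13.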
